A study of Mus musculus with 8 samples.

Results

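Trib3 and 9 further genes of the ATF4 stress response (Atf4, Atf3, Atf5, Ddit3, Asns, Chac1, Sesn2, Psat1 and Phgdh) were followed in the livers of mice that lack FoxO1 in myeloid cells. The 10 genes were chosen by name, as the pseudokinase Trib3 and genes of the pathway that controls it, out of 46517 genes in the count table. Earlier results of these data were known at that choice, so the counts and P values of these genes are no independent test. The study fed 4 male MøFoxO1-KO mice and 4 male wild-type (WT) littermates, all C57BL/6, a diet that induces nonalcoholic steatohepatitis (NASH) for 25 weeks from 6 weeks of age. At 31 weeks, after a fast of 16 hours, RNA of the whole liver was sequenced from libraries of polyadenylated RNA. MøFoxO1-KO mice were FoxO1 loxP/loxP-Lyz2-Cre, in which Cre is driven by the Lyz2 promoter, active in macrophages, monocytes and neutrophils, and WT littermates were FoxO1 loxP/loxP without Cre. Hepatocytes, which make up most of the liver, keep FoxO1 in both groups.

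The integrated stress response starts with 4 kinases that phosphorylate the translation factor eIF2. General protein synthesis then drops, while translation of the Atf4 messenger increases, so that ATF4 activity is set largely by translation and not by the amount of Atf4 RNA. ATF4 pairs with C/EBP proteins on a short element and activates genes for amino acid synthesis and transport, for glutathione turnover and for feedback control. In the liver the pathway responds to amino acid shortage, endoplasmic reticulum stress and mitochondrial stress, and Trib3 is known as a target of it whose protein binds AKT, ATF4 and CHOP.

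Total counts were 15253218 to 18025481 per mouse, and mitochondrial genes held 4.16 to 6.33% of them. Normalized counts are counts scaled by edgeR's TMM library sizes to the mean library of the 8 mice. After low counts were filtered out, 13278 genes were tested between the groups by the quasi-likelihood method of edgeR, and P was adjusted by Benjamini-Hochberg. Called genes are those with an adjusted P below 0.05 whose log2 fold change also exceeds 1.5 in size. Log2 fold changes are MøFoxO1-KO over WT. Permutation tests were exact and two-sided on normalized counts, and 0.0286 is the smallest P that groups of 4 can give. Foxo1 itself had 302 to 458 normalized counts in WT livers and 289 to 429 in MøFoxO1-KO livers, with a log2 fold change of -0.17 (SE 0.18, edgeR adjusted P = 0.686). RNA of the whole liver holds Foxo1 of every cell type, so these values do not check the deletion in myeloid cells. Likewise, fewer cells of a type and less RNA per cell cannot be told apart in any value given here.

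Of the 10 genes, 9 passed the filter and 0 were called, against 0.188% of all tested genes. With no limit on the fold change 0 of the 9 had an adjusted P under 0.05, against 0.294% of tested genes. At an unadjusted edgeR P under 0.05, 4 were lower in MøFoxO1-KO livers (Trib3, Chac1, Atf3 and Psat1) and 0 were higher, where 8.06% of all tested genes were lower and 8.65% higher. The groups were apart, with MøFoxO1-KO lower, for 2 of the 9, Trib3 and Chac1, as for 4.71% of tested genes, and 5.00% of tested genes were apart with MøFoxO1-KO higher. The log2 fold change was below 0 for 7 of the 9, with a median of -0.94, beside 51.7% and a median of -0.01 over all tested genes. That median was -0.32 without WT replicate 22. By DESeq2 with Benjamini-Hochberg adjustment, a test listed as an alternative, the same 4 genes had an adjusted P under 0.05 (4.41% of tested genes), and Atf3 and Psat1 were also past the fold limit (1.08% of tested genes). With no filter on low counts, edgeR called 0 of the 10 genes and 0.507% of 23665 genes.

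The letters that ATF4 and its C/EBP partners are known to bind (TGATGNAA, read on both strands) were looked up in RefSeq promoter windows of GRCm38.p6, which run from 250 bases before to 50 bases after each annotated start. All 10 genes matched, with 12 windows. The letters were found for 4 of the 10 genes, which are Trib3, Chac1, Asns and Atf3, and in 4 of the 12 windows (33.3%), where 1304 of all 32851 windows (3.97%) hold them. In the list of genes for aminoacyl-tRNA synthetases and tRNA export, 5 of 10 genes with a window hold the letters. Their log2 fold changes were -0.07 (Aars), -0.26 (Gars), -0.40 (Iars), -0.13 (Tars) and -0.02 (Yars). The median over all 18 tested genes of that list, with or without a window, was -0.08. Whether the letters bear on the levels was not tested. The matches of the 4 genes are shown as the pathway's own element, and Psat1, which was lower at an unadjusted P under 0.05, has none in its window. Each stretch is written 5′ to 3′ on the strand of its gene, with the match in capitals. A match is a description of the letters and no evidence of binding.
Trib3, chr2:152344028-152344057, minus strand: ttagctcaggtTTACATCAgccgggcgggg
Chac1, chr2:119351038-119351067, plus strand: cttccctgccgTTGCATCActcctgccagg
Asns, chr6:7693214-7693243, minus strand: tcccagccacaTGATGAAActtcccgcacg
Atf3, chr1:191183425-191183454, minus strand: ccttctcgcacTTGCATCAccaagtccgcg

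The match of Trib3 covers bases 15 to 22 after the RefSeq start and lies 7 bases outside the Ensembl gene that was counted. In Chac1 the match begins 193 bases before the RefSeq start, 173 bases outside the counted gene. That of Asns begins 23 bases before the RefSeq start, within the first exon of the longer Ensembl gene. For Atf3 it begins 110 bases before the RefSeq start, which Ensembl places in an intron because one of its transcripts starts far upstream. Atf3 also has the letters of a cyclic AMP response element (TGACGTNA, both strands, in 2.93% of all windows) 10 bases before that start, in the stretch tattaatagcaTTACGTCAgcctgggattg (chr1:191183325-191183354, minus strand).

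Trib3 (ENSMUSG00000032715, GRCm38 chr2:152337422-152344032, minus strand) encodes a Tribbles pseudokinase. Its normalized counts were 348, 298, 332 and 260.3 in WT replicates 22, 23, 24 and 25 and 189, 143, 175 and 97.2 in MøFoxO1-KO replicates 26, 27, 28 and 29. The highest MøFoxO1-KO mouse was below the lowest WT mouse. WT livers had a mean of 309 ± 38.7 and MøFoxO1-KO livers one of 151 ± 40.9 (SD, n = 4 each), a ratio of 2.05 of WT to MøFoxO1-KO. The log2 fold change was -1.03 (SE 0.20, 95% interval -1.48 to -0.58, edgeR adjusted P = 0.0799), and the exact permutation test gave P = 0.0286, the smallest it allows. Trib3 ranked 77 of the 13278 tested genes by P. Each fit that left out 1 mouse gave a value from -1.16 to -0.87. The adjusted P was 0.0178 in edgeR with no filter on low counts and 5.89e-04 in DESeq2, both with Benjamini-Hochberg adjustment. In these alternatives Trib3 passed the limit on P but not the fold limit (log2 fold change -1.04 and -1.02), so it was not called. All other fits gave a Benjamini-Hochberg adjusted P from 0.0637 to 0.261.

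Among the other transcription factors, Atf4 (ENSMUSG00000042406, chr15:80255184-80257540), the factor of the pathway, had 1444, 1227, 1421 and 1471 normalized counts in the 4 WT mice and 1448, 1686, 1466 and 1502 in the 4 MøFoxO1-KO mice. The groups overlapped and the log2 fold change was 0.13 (SE 0.11, 95% interval -0.11 to 0.38, edgeR adjusted P = 0.582). Translation of Atf4 was not measured.

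Ddit3 (chr10:127290774-127296288), which encodes the pro-apoptotic factor CHOP and is induced by ATF4, had 193, 139, 153 and 199.7 normalized counts in WT and 136, 216, 241 and 164 in MøFoxO1-KO mice. Its log2 fold change was 0.14 (SE 0.21, edgeR adjusted P = 0.774) and the groups overlapped. In the annotation, 68 of its 1713 exonic bases (3.97%) are shared with Mars and 13 with Gm4189 on the opposite strand, and the library kit does not mark strand. On the same strand 105 bases (6.13%) are shared with a second entry named Ddit3, which is not in the count table. Atf5 (chr7:44812257-44816658), a bZIP factor with its own translational control, ranged from 5983 to 9941 normalized counts in WT and from 4902 to 8372 in MøFoxO1-KO livers, with a log2 fold change of -0.20 (SE 0.22, edgeR adjusted P = 0.690). Of its exonic bases 4.11% are shared with Il4i1 and 4.11% with Nup62, both on the opposite strand, and Nup62 is not in the count table.

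Atf3 (ENSMUSG00000026628, chr1:191170296-191218039), a stress-inducible bZIP repressor, varied more than these 3. WT replicates 22, 23, 24 and 25 had 270.1, 59.9, 137 and 27.8 normalized counts, and the MøFoxO1-KO mice had 25.8, 27.4, 31.3 and 48.0. WT replicates 22, 23 and 24 were above every MøFoxO1-KO mouse, while WT replicate 25 lay among them. The log2 fold change was -1.90 (SE 0.60, edgeR adjusted P = 0.182), the exact permutation test gave P = 0.0857, and the log2 fold change was -1.18 when WT replicate 22 was left out.

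**Figure D1:**
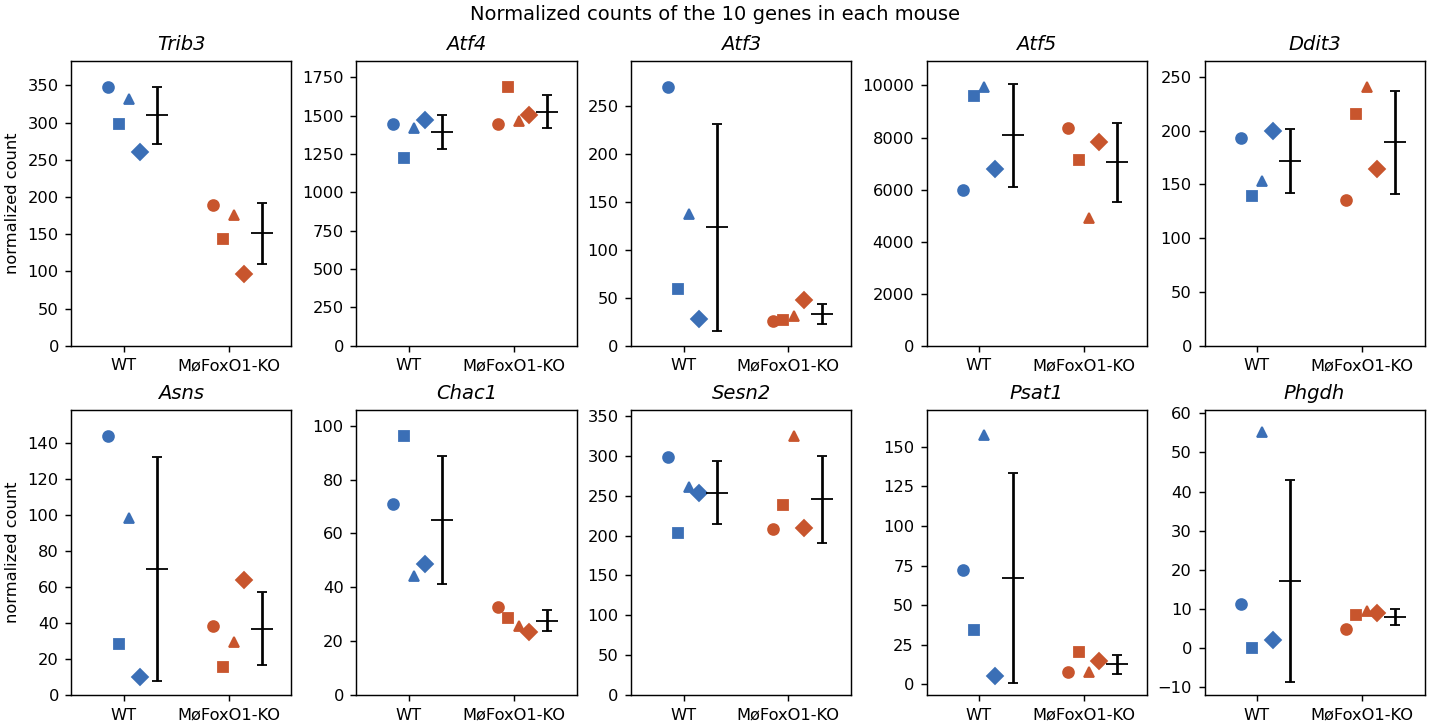
Normalized counts (y axis, linear) of the 10 genes in each of the 4 WT mice (blue) and the 4 MøFoxO1-KO mice (orange), with mean and SD beside each group; symbols from left to right are WT replicates 22 to 25 and MøFoxO1-KO replicates 26 to 29. The groups are apart for Trib3 and Chac1, whereas Atf3, Asns, Psat1 and Phgdh spread widely among the WT mice, and the SD bar of Phgdh reaches below 0 although no count does.

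Of the amino acid genes, Asns (ENSMUSG00000029752, chr6:7675169-7693254), which encodes asparagine synthetase, had 144, 28.5, 98.5 and 9.93 normalized counts in WT and 38.3, 15.5, 29.4 and 63.7 in MøFoxO1-KO mice. The WT mice spanned a 14.5-fold range that held all MøFoxO1-KO mice, and the log2 fold change was -0.94 (SE 0.70, edgeR adjusted P = 0.545), or -0.32 without WT replicate 22. Psat1 (ENSMUSG00000024640, chr19:15904678-15947337), an enzyme of serine synthesis, had 72.0, 34.3, 157 and 4.97 normalized counts in WT and 7.65, 20.3, 7.58 and 14.5 in MøFoxO1-KO mice. Its log2 fold change was -2.44 with an SE of 0.81 (edgeR adjusted P = 0.193, exact permutation P = 0.143), and without WT replicate 24 it was -1.58 with an unadjusted edgeR P of 0.0575. The WT range was 31.7-fold and again its lowest mouse was WT replicate 25.

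Phgdh (chr3:98313170-98339990), the first enzyme of serine synthesis, did not pass the filter. It had 12, 0, 60 and 2 reads in the WT mice and 5, 7, 10 and 8 in the MøFoxO1-KO mice, and the 0 of WT replicate 23 allows up to 2.94 normalized counts, which covers counting error only. WT replicate 24 held most of the WT reads. The log2 fold change was -1.12 (SE 0.89) in the fit with no filter and 0.79 without WT replicate 24.

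The remaining genes act in redox and growth control. Chac1 (ENSMUSG00000027313, chr2:119351229-119354381), which degrades glutathione, had 71.0, 96.2, 44.2 and 48.7 normalized counts in WT and 32.5, 28.6, 25.6 and 23.5 in MøFoxO1-KO mice. The groups did not overlap, with means of 65.0 ± 23.8 and 27.5 ± 3.94 (SD, n = 4 each). The log2 fold change was -1.23 (SE 0.30, 95% interval -1.90 to -0.56, edgeR adjusted P = 0.120), with values from -1.38 to -0.98 when 1 mouse was left out. Sesn2 (ENSMUSG00000028893, chr4:132492032-132510501), a sestrin that restrains mTORC1, had 203 to 298 normalized counts in WT and 209 to 325 in MøFoxO1-KO livers. The groups overlapped, and the log2 fold change of -0.05 (SE 0.18, edgeR adjusted P = 0.921) had the opposite sign without WT replicate 22 or MøFoxO1-KO replicate 26 or 29.

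**Figure D2:**
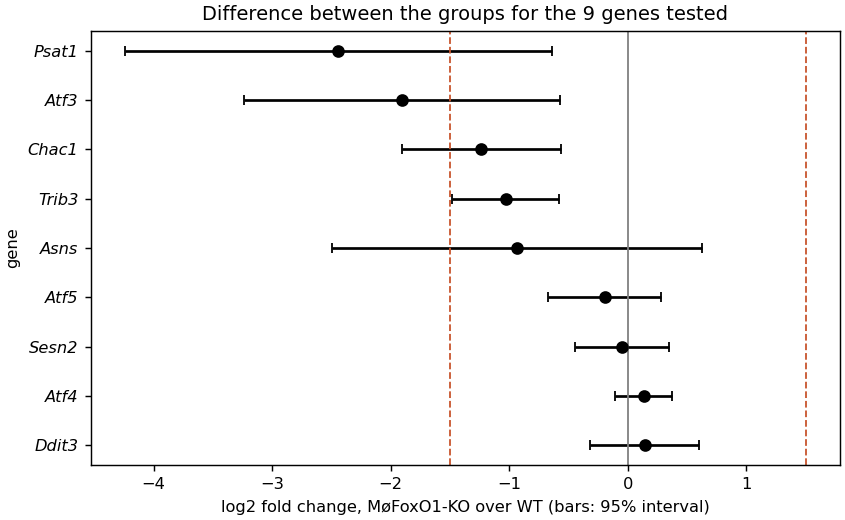
Log2 fold change of MøFoxO1-KO over WT (x axis) for the 9 genes that passed the filter, with 95% intervals of edgeR's fit as bars; the dashed lines mark the fold limit of 1.5 on the log2 scale. The intervals of Psat1, Atf3, Chac1 and Trib3 lie below 0, and those of Trib3, Atf4, Atf5, Ddit3 and Sesn2 lie within the 2 limits.

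Per length, as RPKM (reads divided by exon length and by library size), the order of the levels in WT livers began with Atf5 at 248 ± 61.0, Atf4 at 49.3 ± 3.95, Trib3 at 8.89 ± 1.11 and Ddit3 at 6.11 ± 1.06 (SD, n = 4). No WT mouse of one of these 4 genes overlapped with the next in that order. From Ddit3 down through Sesn2, Atf3, Chac1, Asns, Psat1 and Phgdh each gene overlapped with its neighbour, and Phgdh was lowest at 0.420 ± 0.636. In MøFoxO1-KO livers Atf5 was at 216 ± 46.7 and Atf4 at 54.1 ± 3.88 on this scale. Trib3, at 4.35 ± 1.18, came after Ddit3 at 6.74 ± 1.70 and overlapped with it and with Sesn2 at 4.31 ± 0.961. Chac1 followed at 1.03 ± 0.147, below every Sesn2 value, then Atf3 and Asns overlapped with their neighbours above, and Phgdh and Psat1 overlapped with each other below Asns.

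WT replicates 22 and 24 were the highest WT mice for Atf3, Asns, Psat1 and Phgdh, and WT replicate 25 was the lowest for the first 3. For Trib3, WT replicates 22 and 24 were also the highest and WT replicate 25 the lowest, within a narrower range. Sesn2 had the same 2 mice at the top. Other genes differed: WT replicate 23 was the highest and 24 the lowest for Chac1, and WT replicate 22 was the lowest for Atf5. WT replicate 25 was the highest WT mouse for Atf4 and Ddit3. Among further pathway genes, WT replicate 23 was the highest WT mouse for Mthfd1l, Gpt2 and Slc6a9. The hormones Fgf21 and Gdf15, targets of the pathway that were singled out after their values were seen, had WT replicates 22 and 24 as their highest WT mice. Fgf21 had 694, 265, 625 and 177 normalized counts in WT and 104, 362, 246 and 368 in MøFoxO1-KO mice. Gdf15 had 965, 553, 907 and 429 in WT and 169, 211, 1004 and 461 in MøFoxO1-KO mice, so that MøFoxO1-KO replicate 28 was its highest. The groups overlapped for both hormones.

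**Figure D3:**
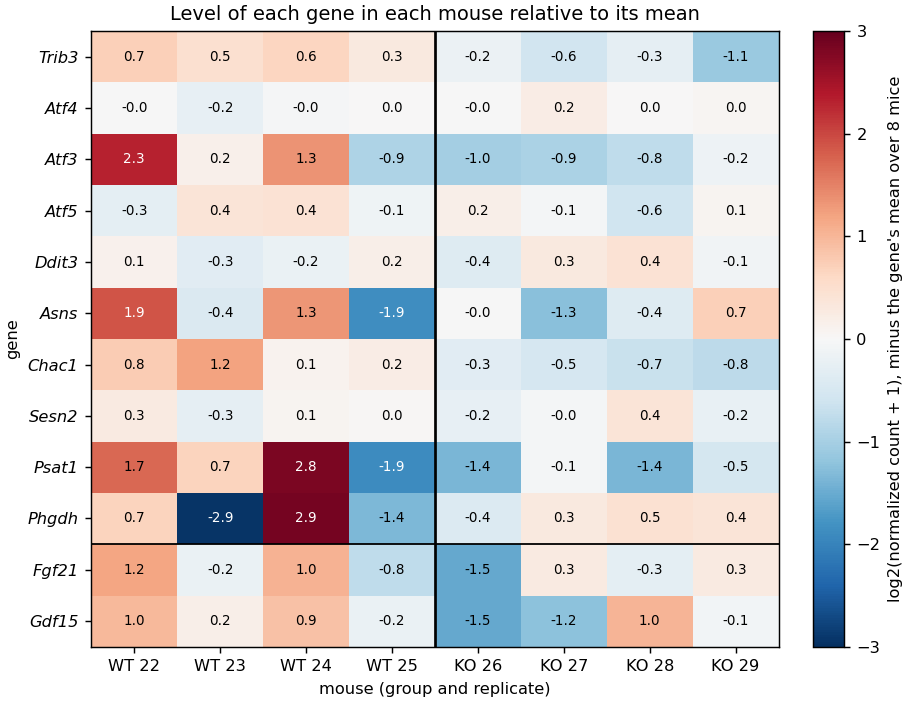
Level of each gene (rows) in each mouse (columns, WT left and MøFoxO1-KO, labelled KO, right of the line) as log2(normalized count + 1) minus the mean of the gene over the 8 mice; red is above and blue below that mean. Fgf21 and Gdf15, under the lower line, are not among the 10 genes. WT replicates 22 and 24 are red for Atf3, Asns, Psat1 and both hormones, whereas Atf4 is near 0 in all 8 mice.

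Pearson correlations of log2(normalized count + 1) were computed for the 45 pairs of the 10 genes over the 8 mice, with exact permutation tests, and 0 pairs had a Benjamini-Hochberg adjusted P under 0.05. The median r was 0.18. The pair furthest from 0 was Atf5 and Ddit3, with r = -0.871 (exact permutation P = 0.00521, adjusted 0.114), rho = -0.810 (exact permutation P = 0.0218, adjusted 0.327) and r = -0.820 without the 2 mice farthest from the median of Atf5. Atf3 and Psat1 had r = 0.860 (exact permutation P = 0.00766, adjusted 0.114), rho = 0.714 (exact permutation P = 0.0576, adjusted 0.370) and r = 0.711 without the 2 farthest mice. Atf3 and Asns had r = 0.843 (exact permutation P = 0.00689, adjusted 0.114) and rho = 0.643 (exact permutation P = 0.0962, adjusted 0.393). The last r was 0.478 without the 2 farthest mice, so it rests on them. After the group means were subtracted, exact permutation was within groups. Atf3 and Asns then had r = 0.941 (permutation P = 0.0139, adjusted 0.312). For Atf3 and Psat1 it was 0.797 (permutation P = 0.135, adjusted 0.984) and for Atf5 and Ddit3 -0.865 (permutation P = 0.0208, adjusted 0.312). None of these pairs passed the adjustment. For Trib3 and Chac1, both of which split the 8 mice by genotype, no r over all mice is given, and after the group means were subtracted r was 0.296. Among 10388 tested genes with at least 50 normalized counts on average, the levels most like that of Trib3 over the 8 mice, by Pearson r of log2 CPM, included those of Coro1c (0.976), Zfp26 (0.969), Iffo2 (0.969) and Stk40 (0.967). After the group means were subtracted they were those of Srm (0.975), Syt1 (0.972), 2900026A02Rik (0.965), R3hdm4 (0.959) and Ptges3-ps (0.957), none of them among the genes named for the first measure. These are descriptions chosen among many genes over 8 mice.

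A further 111 genes of the integrated stress response and the unfolded protein response were sorted by role into 10 lists, and 106 were tested. None was called and none had an adjusted P under 0.05 by edgeR. At an unadjusted P under 0.05, 18 were lower in MøFoxO1-KO livers (17.0%, against 8.06% of all tested genes) and 13 were higher (12.3%, against 8.65%). By DESeq2, 13 had an adjusted P under 0.05, against 4.41% of all tested genes, and 4 of them, Nupr1, Dusp8, Mthfd1l and Vldlr, were past the fold limit, against 1.08%.

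Upstream of ATF4, all 4 eIF2 kinases had a log2 fold change below 0, with a median of -0.39, and 3 had an unadjusted P under 0.05. Of all tested genes 51.7% were below 0, and at that P 8.06% were lower and 8.65% higher. Eif2ak3, which encodes the endoplasmic reticulum kinase PERK, had 309, 218, 267 and 153 normalized counts in WT and 182, 129, 152 and 131 in MøFoxO1-KO mice (edgeR adjusted P = 0.190), and the groups overlapped. Eif2ak2, which encodes the double-stranded RNA sensor PKR, had 137 to 165 in WT and 96.6 to 123 in MøFoxO1-KO mice without overlap (log2 fold change -0.45, edgeR adjusted P = 0.193). Eif2ak1, the heme-regulated kinase and the most abundant of the 4 per length, had a log2 fold change of -0.32 (edgeR adjusted P = 0.257). Of the 8 subunits of eIF2 and its exchange factor eIF2B, 1 was higher at an unadjusted P under 0.05. It was Eif2b4, at 492 to 614 normalized counts in WT and 634 to 809 in MøFoxO1-KO mice (edgeR adjusted P = 0.234). The 5 subunits of the phosphatases that reverse eIF2 phosphorylation had 0 such genes, and Ppp1ca, the most abundant, had a log2 fold change of -0.01.

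Among 10 bZIP partners, Jun, a subunit of AP-1, had 513, 752, 479 and 411 normalized counts in WT and 172, 280.1, 320.1 and 230.1 in MøFoxO1-KO mice. All MøFoxO1-KO mice were below all WT mice (log2 fold change -1.10, SE 0.23, edgeR adjusted P = 0.0953). Cebpg, a C/EBP partner of ATF4, was also lower without overlap, at 760.0 to 936 in WT and 617 to 729 in MøFoxO1-KO mice (log2 fold change -0.32, edgeR adjusted P = 0.191). Batf3 had a log2 fold change of 1.25 (edgeR adjusted P = 0.213) and overlapping groups, and the abundant Cebpa one of -0.13. The groups overlapped for both relatives of Trib3, and Trib1 had 525 to 723 normalized counts in WT and 472 to 625 in MøFoxO1-KO mice (log2 fold change -0.13).

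Downstream, 7 of 9 tested enzymes of serine and one-carbon metabolism had a log2 fold change below 0, with a median of -0.40, and 3 had an unadjusted P under 0.05. Over all tested genes 51.7% were below 0 and 8.06% were lower at that P, shares that stand beside each list of this paragraph. Mthfd1l, a mitochondrial formyltetrahydrofolate synthetase, had 62.6, 93.2, 76.4 and 38.7 normalized counts in WT and 20.1, 19.1, 20.8 and 34.6 in MøFoxO1-KO mice (log2 fold change -1.52, SE 0.33, edgeR adjusted P = 0.0993). No MøFoxO1-KO mouse reached the lowest WT mouse. Gpt2, the mitochondrial alanine aminotransferase, was lower without overlap (log2 fold change -1.13, edgeR adjusted P = 0.195) and Mthfd2 lower with overlap (-0.91, edgeR adjusted P = 0.187). Shmt2, the most abundant of the list, had a log2 fold change of 0.01. Of 8 tested amino acid transporters 1 had an unadjusted P under 0.05, the glycine transporter Slc6a9, at 136 to 358 normalized counts in WT and 76.3 to 142 in MøFoxO1-KO mice (edgeR adjusted P = 0.122), while the abundant Slc38a2 had a log2 fold change of 0.15. Of 18 genes for cytosolic aminoacyl-tRNA synthetases and tRNA export, 14 were below 0 with a median of only -0.08, and Iars (-0.40) and the tRNA exportin Xpot (-0.38) had an unadjusted P under 0.05. Nars, the most abundant, had a log2 fold change of -0.07.

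Of 17 other tested targets of ATF4 and CHOP, 15 had a log2 fold change below 0 (51.7% of all tested genes), with a median of -0.43. At an unadjusted P under 0.05, 6 were lower and 0 higher, beside 8.06% and 8.65% of all tested genes. Without WT replicate 23, MøFoxO1-KO replicate 26 or MøFoxO1-KO replicate 27, 3 were lower at that P. Nupr1, a stress-induced chromatin protein, had 162, 96.2, 92.1 and 46.7 normalized counts in WT and 14.3, 28.6, 32.2 and 39.1 in MøFoxO1-KO mice (log2 fold change -1.80, SE 0.41, edgeR adjusted P = 0.102). Vldlr, a receptor that takes up triglyceride-rich lipoproteins, had 267, 261, 355 and 393 in WT and 69.8, 60.8, 113 and 200.0 in MøFoxO1-KO mice (log2 fold change -1.53, SE 0.34, edgeR adjusted P = 0.102). Dusp8, a phosphatase of MAP kinases, had 16.9 to 57.0 in WT and 0.947 to 12.3 in MøFoxO1-KO mice (log2 fold change -2.85, edgeR adjusted P = 0.0968). The groups were apart, with MøFoxO1-KO lower, for these 3 only of the 17 tested targets, against 4.71% of all tested genes. They were named for the smallest P values of the list, which go with groups that stand apart. Bbc3, which encodes the apoptosis effector PUMA, had a log2 fold change of -0.52 (edgeR adjusted P = 0.250) and the abundant autophagy receptor Sqstm1 one of -0.29. The letters TGATGNAA were found for 4 of the 14 genes of this list with a promoter window, against 4.51% of all genes with a window. The 4 were Nupr1, Vldlr, Fgf21 and Herpud1. Fgf21 and Herpud1 had log2 fold changes of -0.71 and -0.31 (edgeR adjusted P = 0.490 and 0.529) and overlapping groups. The matches of Nupr1 and Vldlr begin 110 and 200 bases before the RefSeq start and lie in exons of longer Ensembl transcripts.
Nupr1, chr7:126625562-126625591, minus strand: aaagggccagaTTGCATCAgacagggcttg
Vldlr, chr19:27216809-27216838, plus strand: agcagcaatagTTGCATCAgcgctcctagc

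The other arms of the unfolded protein response, which run through ATF6 and XBP1 and raise chaperones of the endoplasmic reticulum, lay on the opposite side of 0. Of 25 tested genes 21 had a log2 fold change above 0, with a median of 0.37. Over all tested genes 51.7% were below 0, with a median of -0.01. At an unadjusted P under 0.05, 11 were higher and 1, Atf6 itself, was lower, beside 8.65% and 8.06% of all tested genes. The groups were apart, with MøFoxO1-KO higher, for 8 of the 25, against 5.00% of tested genes. Hsp90b1, the chaperone GRP94, had 3435, 3738, 3708 and 3717 normalized counts in WT and 4844, 5582, 4584 and 4932 in MøFoxO1-KO mice (log2 fold change 0.45, SE 0.11, edgeR adjusted P = 0.121). Calr, the lectin chaperone calreticulin, had 5609 to 6247 in WT and 6572 to 9618 in MøFoxO1-KO mice (log2 fold change 0.53, edgeR adjusted P = 0.131). The co-chaperones Dnajb11 and Sdf2l1 had log2 fold changes of 0.43 and 1.00 (edgeR adjusted P = 0.131 and 0.134), also without overlap. Without MøFoxO1-KO replicate 27 the median of the list was 0.22 and 7 genes were higher at an unadjusted P under 0.05.

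ATF6 is known to bind the ER stress response element (CCAAT, then 9 bases of any kind, then CCACG, on both strands). The element was found for 9 of the 21 genes of this list with a promoter window and for 0 of the 10 Trib3 and ATF4 genes. Of all 27025 genes with a window 37 (0.137%) hold it. By window it was in 9 of 22 for this list, against 39 of all 32851 (0.119%). TGATGNAA was found for 0 of these 21 genes. Hsp90b1 has the element at 212 and 107 bases and Calr at 162 bases before the RefSeq start, all outside the counted genes.
Hsp90b1, chr10:86705633-86705661, minus strand: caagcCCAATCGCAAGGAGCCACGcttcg
Hsp90b1, chr10:86705528-86705556, minus strand: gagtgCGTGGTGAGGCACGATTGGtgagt
Calr, chr8:84847070-84847098, minus strand: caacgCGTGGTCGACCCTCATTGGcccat

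**Figure D4:**
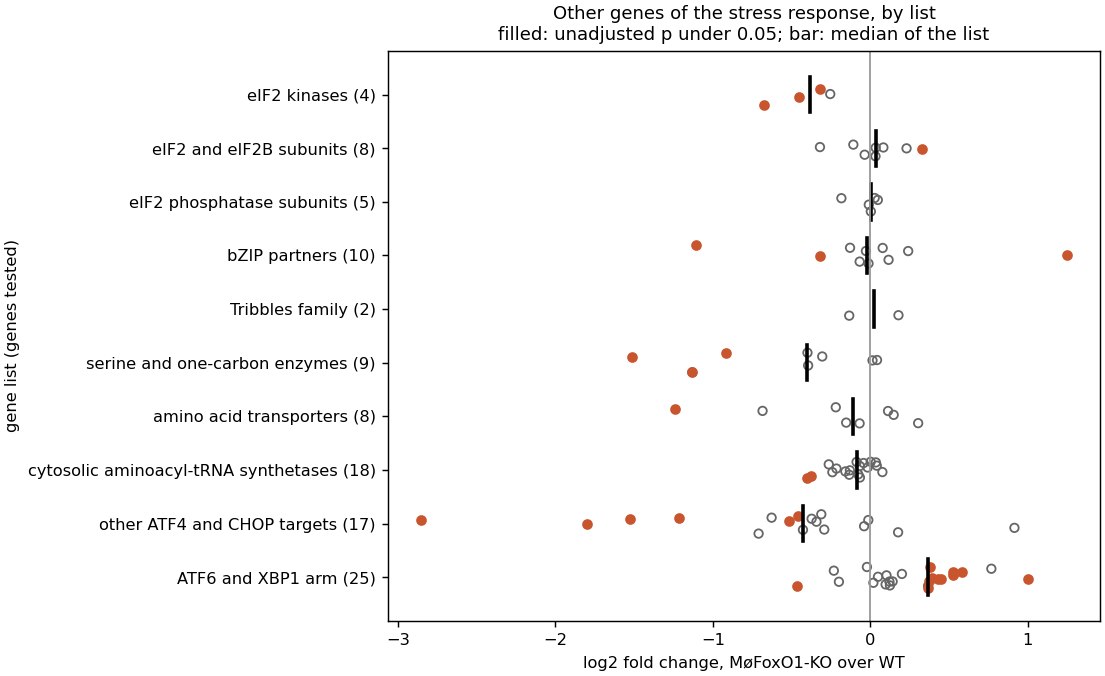
Log2 fold change of MøFoxO1-KO over WT (x axis) of the 106 other tested genes of the stress response, 1 point per gene, by list (y axis, number of genes tested in brackets); filled points have an unadjusted edgeR P under 0.05 and black bars are medians. The eIF2 kinases and the other ATF4 and CHOP targets have medians of -0.39 and -0.43, and the ATF6 and XBP1 arm one of 0.37.

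Markers of liver cells were summed per length in each mouse. Hepatocyte markers reached 32814 to 42337 in WT and 39977 to 60539 in MøFoxO1-KO livers, ranges that overlap. Of the 8 markers 6 were higher, 2 of them at an unadjusted P under 0.05 and without overlap, Apoa1 (log2 fold change 1.07, edgeR adjusted P = 0.0765) and Serpina1a (0.90, edgeR adjusted P = 0.102). Of all tested genes 8.65% were higher at that P and 5.00% were apart with MøFoxO1-KO higher. Macrophage markers reached 103 to 174 in WT livers and 168, 297, 98.6 and 457 in MøFoxO1-KO replicates 26, 27, 28 and 29. The sum of MøFoxO1-KO replicate 28 was thus below that of every WT mouse. Of the 10 macrophage markers 9 were higher, 6 of them at an unadjusted P under 0.05, against 8.65% of all tested genes. The groups were apart, with MøFoxO1-KO higher, for 1 of the 10, against 5.00% of all tested genes. Of the 6 markers of lipid-associated macrophages, 4 were lower and 2 higher. Gpnmb was called and fell from 22.8 to 141 normalized counts in WT to 1.12 to 7.58 in MøFoxO1-KO livers (log2 fold change -4.13, edgeR adjusted P = 0.0382). Trem2 had 11.9 to 88.4 normalized counts in WT and 0 to 6.63 in MøFoxO1-KO livers, without overlap (log2 fold change -3.88, edgeR adjusted P = 0.0983). Of all tested genes 0.188% were called. The groups were apart, with MøFoxO1-KO lower, for 2 of the 6, against 4.71% of all tested genes. At an unadjusted P under 0.05, 2 of the 6 were lower and 0 higher, against 8.06% and 8.65%. The median log2 fold change of the 6 was -0.12. The summed level of this list overlapped between the groups (58.0 to 84.2 and 52.0 to 79.0). Sums also overlapped for markers of neutrophils (2.89 to 7.96 and 1.45 to 8.62), T and B cells (2.08 to 9.30 and 6.57 to 13.5), stellate cells (82.1 to 149 and 109 to 174), sinusoidal endothelium (14.8 to 46.0 and 32.2 to 52.8) and cholangiocytes (3.08 to 4.89 and 2.95 to 3.85). At an unadjusted P under 0.05, 2 of the 8 stellate cell markers were lower and 0 higher, against 8.06% and 8.65% of all tested genes. The groups were apart, with MøFoxO1-KO lower, for 1 of these 8, against 4.71%. All 7 tested T and B cell markers and all 6 endothelial markers had a log2 fold change above 0. All 4 tested cholangiocyte markers were below 0, as were 51.7% of all tested genes. No marker was at 0 in all mice. The part of these cell types in the values of Trib3 and the other genes was not tested.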

How the data were processed

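Livers of 4 MøFoxO1-KO mice and 4 WT littermates were compared. The authors deposited read counts per Ensembl gene without normalization, in the layout of featureCounts, with exon coordinates and summed exon length. The submitters' processing notes name STAR, featureCounts and mm10, and no versions were used here. Whether strand was used and how multi-mapped reads were counted is not given in the sources used here. Total counts of 15253218 to 18025481 per mouse limit the precision for genes with few counts. Of 46517 genes, 46005 had a symbol in GENCODE M21, in which methionyl-tRNA synthetase is Mars.

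Genes were filtered with filterByExpr (minimum count 10, minimum total 15), scaled by TMM and compared by edgeR 4.0.16 (quasi-likelihood, no covariates, R 4.3.3), with Benjamini-Hochberg adjustment. SE was derived from the F statistic, and 95% intervals from its degrees of freedom. Levels per length used TMM library sizes. Alternatives were DESeq2 1.42.0, limma-voom 3.58.1, DESeq2 size factors, upper-quartile normalization, a robust fit, no filter, at least 10 counts in every mouse, other thresholds, and leaving out each mouse. The fits were tested on simulated data. Permutation tests used scipy 1.17.1, with numpy 2.4.6 and pandas 2.3.3 in Python 3.11.15, and plots matplotlib 3.10.9. Promoter sequences are from RefSeq.

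The 10 genes and the lists were chosen with earlier results of these data known. Named genes are these 10, Foxo1, up to 4 genes of each list with the smallest unadjusted P under 0.05, the most abundant gene of each list per length, and the 5 genes most like Trib3 by each of the measures given, of which 1 is not reported here. Atf6, Fgf21, Gdf15, the marker genes and the genes named only for a promoter match were named after their values were seen.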

Additional observations from a re-analysis of the deposited data

Results flagged for a closer look

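Each group of 4 mice was examined for a mouse whose normalized count stood apart from the other 3 of its group, by Dixon's ratio of the gap to the range at its 95% critical value. Of 78 groups tested over the named genes 6 had such a mouse, and chance flags about 1 in 20 groups. None of these was a group of the 10 Trib3 and ATF4 genes. Mthfd1l had 34.6 normalized counts in MøFoxO1-KO replicate 29, above 19.1 to 20.8 in the other 3 mice. Gpt2 had 15463 in WT replicate 23, above 5717 to 6641 in the others. Xpot had 1721 in WT replicate 23, above 1223 to 1251, and 1247 in MøFoxO1-KO replicate 26, above 969 to 994. Hsp90b1 had 3435 in WT replicate 22, below 3708 to 3738 in the others. Sdf2l1 had 363 in MøFoxO1-KO replicate 27, above 179.8 to 209 in the others.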

How the results depend on the processing

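No paired analysis was possible because the replicate numbers of the labels differ between the groups. Trib3 kept its direction in all 18 alternatives, with log2 fold changes from -1.16 to -0.87 and adjusted P from 5.89e-04 to 0.261. The number of the 10 genes called was 0 in 17 of 18 alternatives, 0 in each fit that left out a mouse and 2 by DESeq2. Of the further pathway genes 4 were called by DESeq2 and 4 by edgeR with no filter. Leaving out 1 mouse gave 0 to 1 of them (Tnfrsf10b without MøFoxO1-KO replicate 28, Vldlr without MøFoxO1-KO replicate 29). Of all tested genes DESeq2 called 1.08%, edgeR with no filter 0.507% and edgeR with the filter 0.188%. These shares stand beside the calls of the 10 genes and of the further pathway genes. Sesn2 had the opposite sign without WT replicate 22 (0.038), MøFoxO1-KO replicate 26 (0.022) or MøFoxO1-KO replicate 29 (0.019), over a range from -0.20 to 0.038, and Phgdh by limma-voom (0.55) and without WT replicate 24 (0.79), over a range from -1.53 to 0.79. The median of the Trib3 and ATF4 genes ranged from -1.11 to -0.32 over the fits that left out a mouse, and was -0.48 by limma-voom, where 2 genes had an unadjusted P under 0.05, and -0.56 with at least 10 counts in every mouse, a filter that Psat1 failed. That of the ATF6 and XBP1 arm was 0.22 without MøFoxO1-KO replicate 27. The number of other ATF4 and CHOP targets with an unadjusted P under 0.05 was 3 without WT replicate 23, MøFoxO1-KO replicate 26 or 27. The cause of these differences was not tested.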
